A study of Mus musculus with 12 samples.

Results

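SR and hnRNP splicing regulators are described here: the serine and arginine rich splicing factors (Srsf genes), the transformer 2 activators Tra2a and Tra2b, the kinases that phosphorylate SR proteins (Clk1 to Clk4, Srpk1 and Srpk2), the nuclear speckle proteins Son and Srrm2, and the heterogeneous nuclear ribonucleoproteins (Hnrnp genes). Members were chosen by symbol and by a level of at least 1 CPM, a count scaled to a common library size, in at least 3 libraries, which gave 41 of the 56953 genes counted. Of 43 candidates, 2 pseudogenes were left out and 0 lay below the level. The lowest member was Srsf12, with 6.76 to 12.2 CPM over the 12 libraries, so no member stood close to the limit. By role there were 11 SR proteins, 2 Tra2 proteins, 6 kinases, 2 speckle proteins and 20 hnRNPs, and all 41 entered the test across genes.

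SR proteins bind exonic enhancers and help the spliceosome to define exons, while many hnRNPs bind exons or introns and oppose or redirect splice site choice. Clk and Srpk kinases phosphorylate the arginine and serine repeats of SR proteins, which sets their import into the nucleus and their release from speckles. Many of these genes adjust their own transcript through exons that carry an early stop codon, so that a gene count can hold both coding and decay-prone isoforms.

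Whole spinal cord RNA was sequenced from control mice and from mice in which Ddx20 flox/flox was combined with the Plp-CreER transgene, taken either 4 or 4.5 weeks after tamoxifen. The Plp promoter drives the tamoxifen-dependent recombinase in myelinating glia, whereas the libraries hold RNA of all cells of the cord. Each of the 4 groups had 3 animals, described in the labels as independent biological replicates. The labels give the control genotype no further, nor the age of the animals, and say nothing of pooling. Ddx20 encodes a helicase of the SMN complex, which assembles the small nuclear ribonucleoproteins of the spliceosome. The cKO-labelled libraries did not have less of its transcript: it stood at 11.01, 9.78 and 11.1 CPM in the controls and 10.2, 11.1 and 9.90 CPM in the cKO-labelled libraries at 4 weeks, and at 9.16, 10.6 and 9.71 CPM in the controls and 12.4, 11.1 and 13.3 CPM at 4.5 weeks. The log2 fold change was -0.03 (SE 0.10, adjusted p = 0.841 in edgeR's quasi-likelihood test, exact 2-sided permutation p = 0.9) at 4 weeks and 0.33 (SE 0.10, adjusted p = 0.0134, exact p = 0.1, the smallest that 3 against 3 libraries allow) at 4.5 weeks. The later call was lost without control library 1 or cKO-labelled library 3 of that time (adjusted p 0.0596 and 0.0627). The labels do not give the deleted exons, reads of single exons were not analysed here, and the groups are named by their labels throughout.

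Library totals lay between 33104560 and 47677267 counts. All marker genes of mature oligodendrocytes, neurons and astrocytes fixed for the check of the tissue were detected in every group. Control library 1 of 4.5 weeks stood apart in the sensory neuron transcript Avil, at 36.1 CPM against 0.259 and 0.627 in the other controls of that time, 0.321 to 0.742 in the 4 week controls and 10.1 to 23.5 in the 6 cKO-labelled libraries. Avil is 1 of 5 sensory ganglion markers, which summed to 110 to 121 CPM in the controls and 145 to 203 in the cKO-labelled libraries at 4 weeks. At 4.5 weeks the sums were 97.9 to 243 and 69.6 to 95.8 CPM. Of 4 tested, 2 were higher and 0 lower at 4 weeks, and 0 higher and 2 lower at 4.5 weeks. Among the 4.5 week controls, Schwann cell markers summed to 7.21 to 244 CPM and skeletal muscle markers to 2.64 to 90.4. Without control library 1 of 4.5 weeks, 26 members were higher at 4.5 weeks in place of 29, and without control libraries 1 and 2 together 22 were. Read from Xist and the Y-linked Ddx3y, the 4 week controls and cKO-labelled library 3 of 4 weeks were male, and cKO-labelled libraries 1 and 2 of 4 weeks and all 6 libraries of 4.5 weeks were female. Sex, time and table of origin therefore cannot be told apart between the control groups. Within 4 weeks, sex is also partly mixed with the cKO label, as only cKO-labelled library 3 shared the sex of the controls. That enters the effects at 4 weeks and the difference of effects.

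At 4 weeks 15 of the 41 members passed the test, and at 4.5 weeks 35 did, mainly as rises led by Srsf9 and Hnrnpf. In the cKO-labelled libraries at 4 weeks, 10 members were higher than in the controls (24.4%, beside 20.1% of all 19278 genes tested) and 5 were lower (12.2%, beside 17.2%), while 26 did not pass an adjusted p of 0.05. At 4.5 weeks, 29 members were higher (70.7%, beside 33.3% of all genes) and 6 were lower (14.6%, beside 32.6%), and 6 did not pass. The median log2 fold change of the members was 0.01 at 4 weeks and 0.29 at 4.5 weeks, where the medians of all genes were 0.01 and 0.02. A change of more than 1.5-fold, up or down and with no test, was seen in 1 member at 4 weeks (beside 24.8% of all genes) and in 14 at 4.5 weeks (beside 50.5%). All shares of all genes take in every level that passed the filter and were not matched to the level of the members. As a share of all gene counts, the members held 0.529%, 0.518% and 0.513% in the 4 week controls and 0.534%, 0.588% and 0.558% in the cKO-labelled libraries, and at 4.5 weeks 0.517%, 0.522% and 0.502% and 0.657%, 0.650% and 0.664%. The cKO-labelled libraries lay above the controls at both times. On the TMM-scaled library size, which the CPM values use, the means were 0.529% ± 0.00530 and 0.536% ± 0.0204 at 4 weeks, where the ranges overlapped, and 0.535% ± 0.00584 and 0.649% ± 0.00983 at 4.5 weeks, where they did not (SD, n = 3 each). The 4 week split of 10 higher and 5 lower became 14 and 1 with library totals as the only scaling and 7 and 2 with sex in the model. With library totals the median log2 fold change at 4 weeks moved in all genes too, to 0.095, beside 0.098 in the members. The share of all genes called is not given for these settings. Leaving out 1 library gave 7 to 10 higher and 2 to 5 lower at 4 weeks, with 2 lower without control library 1 or cKO-labelled library 3 and 3 without control library 2 or 3.

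Markers of several cell types also differed between the groups, at 4 weeks as well as at 4.5 weeks, and their part in the results was not tested. Summed over 9 microglia and macrophage markers, the level was 394 to 411 CPM in the 4 week controls and 1114 to 1971 in the cKO-labelled libraries, and 324 to 347 and 7072 to 7983 at 4.5 weeks, with all 9 higher at both times. The 10 mature oligodendrocyte markers summed to 32816 to 35457 CPM and 14122 to 19144 at 4 weeks (10 of 10 lower), and to 29968 to 30442 and 10679 to 11689 at 4.5 weeks (9 of 10 lower). Neuron markers summed to 7793 to 9000 and 6889 to 7519 CPM at 4 weeks (2 of 8 lower), and to 9797 to 10265 and 2600 to 2736 at 4.5 weeks (8 of 8 lower). Progenitor markers of the oligodendrocyte lineage summed to 277 to 341 and 295 to 313 CPM at 4 weeks (2 of 5 higher, 2 lower), and to 318 to 336 and 1140 to 1394 at 4.5 weeks (4 of 5 higher). Astrocyte markers summed to 4440 to 4842 and 1717 to 3020 CPM at 4 weeks, and to 5157 to 5599 and 2619 to 2706 at 4.5 weeks (6 of 6 lower at both times). Proliferation genes summed to 52.7 to 60.04 and 80.5 to 165 CPM at 4 weeks, and to 47.5 to 53.2 and 126 to 210.3 at 4.5 weeks (7 of 7 higher at both times). No marker of these lists was at 0 in all libraries of a group. In whole cord, fewer cells of a type and less RNA per cell cannot be told apart.

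**Figure D1:**
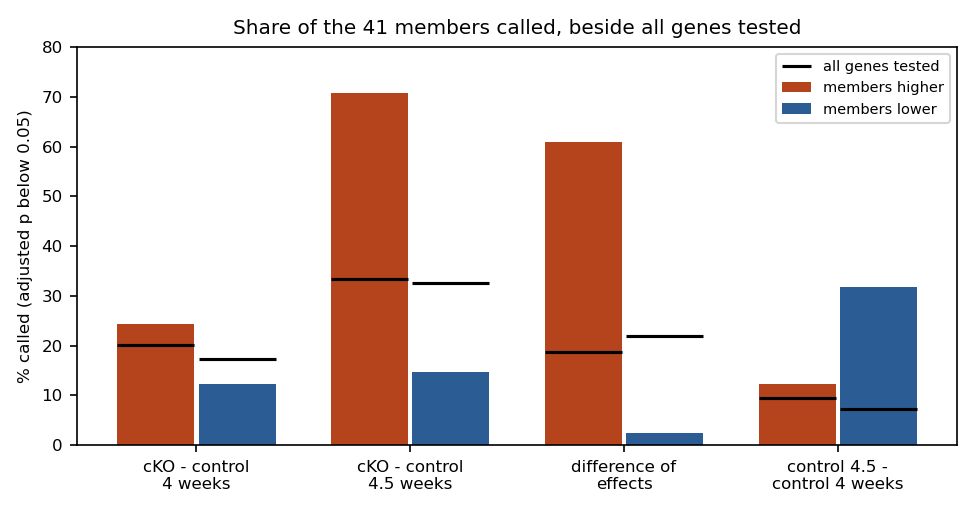
Share of the 41 members called higher (red bars) or lower (blue bars), in percent, in each of the 4 comparisons, with black lines at the share of all 19278 genes tested. At 4.5 weeks 70.7% of the members were higher beside 33.3% of all genes, while at 4 weeks the shares were 24.4% and 20.1%.

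**Figure D2:**
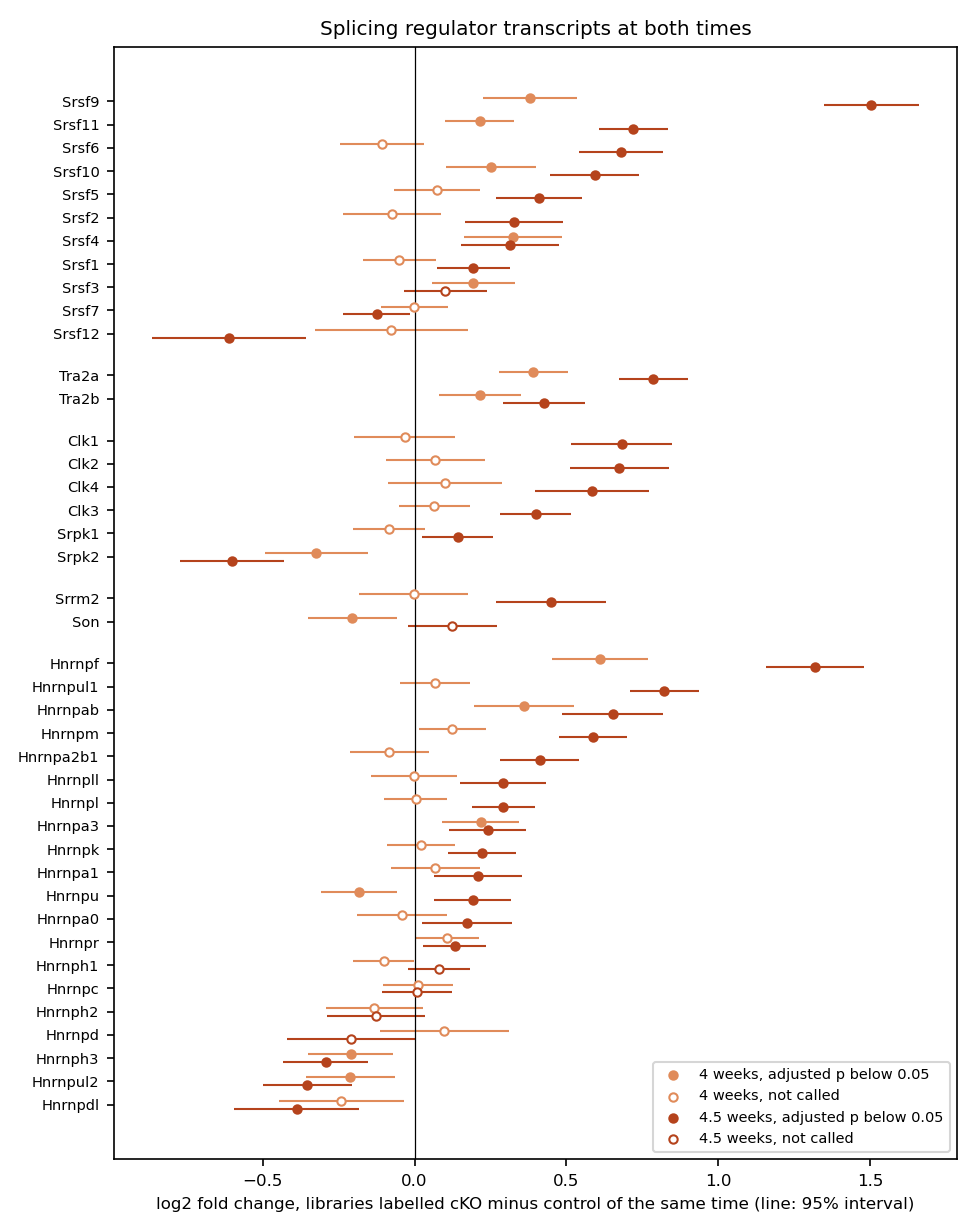
Log2 fold change of each member, cKO-labelled libraries minus control of the same time, with its 95% interval (lines), at 4 weeks (light points) and 4.5 weeks (dark points); filled points passed an adjusted p of 0.05. Members stand in blocks by role, and Srsf9 (1.504) and Hnrnpf (1.32) lay farthest to the right at 4.5 weeks.

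Promoter sequences are shown for 3 members that the results turn on: Srsf9, the SR protein with the largest rise, Hnrnpul1, the hnRNP that rose at 4.5 weeks while its paralog fell, and Srsf12, the SR protein with the largest fall. Each is the 250 bases before the RefSeq start of transcription on the gene's strand (build GRCm38.p6), at chr5:115326927-115327176 (plus strand) for Srsf9, chr7:25754760-25755009 (minus strand) for Hnrnpul1 and chr4:33209022-33209271 (plus strand) for Srsf12. Capitals mark the matches. The letters searched were GGGCGG for the GC box, CCAAT for the CCAAT box, TATAAA for the TATA box and CCGGAAG for an ETS core, on both strands, so that a match on the other strand is printed as the reverse complement.
Srsf9: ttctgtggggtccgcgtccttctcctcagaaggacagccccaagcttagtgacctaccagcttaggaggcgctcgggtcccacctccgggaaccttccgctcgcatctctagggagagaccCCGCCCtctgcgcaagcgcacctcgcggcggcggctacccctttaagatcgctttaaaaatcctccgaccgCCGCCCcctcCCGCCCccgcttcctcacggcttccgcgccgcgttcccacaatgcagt
Hnrnpul1: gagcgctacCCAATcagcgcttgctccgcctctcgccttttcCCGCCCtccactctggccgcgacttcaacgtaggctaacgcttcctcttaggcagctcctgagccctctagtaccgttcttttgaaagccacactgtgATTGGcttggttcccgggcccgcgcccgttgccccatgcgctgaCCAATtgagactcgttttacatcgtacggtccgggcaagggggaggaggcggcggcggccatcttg
Srsf12: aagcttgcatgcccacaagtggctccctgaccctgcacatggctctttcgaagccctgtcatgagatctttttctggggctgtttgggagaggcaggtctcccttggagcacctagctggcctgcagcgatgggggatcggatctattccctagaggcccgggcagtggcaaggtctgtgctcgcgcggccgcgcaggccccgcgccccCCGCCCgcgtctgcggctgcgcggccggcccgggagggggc
The Srsf9 stretch held 3 GC boxes, that of Srsf12 held 1, and that of Hnrnpul1 held 1 GC box and 3 CCAAT boxes. RefSeq promoters of 300 bases, from 250 before to 50 after the start, matched 38 of the 41 members, with 53 promoters in all; Clk1, Hnrnpll and Hnrnpul2 were not matched. The GC box was in 41 of the 53 (77.4%) and in 35.7% of all 32851 promoters, the CCAAT box in 47.2% and 37.4%, the ETS core in 20.8% and 8.86%, and the TATA box in 9.43% and 13.6%. Members' promoters were rich in G and C, with a median of 65.3% against 52.7% over all promoters. These matches describe the letters only, and the member that fell carried the GC box as the members that rose did.

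Of the 11 SR proteins, 5 were higher (45.5%) and 0 lower at 4 weeks, beside 20.1% and 17.2% of all genes. At 4.5 weeks 8 were higher (72.7%) and 2 lower (18.2%), beside 33.3% and 32.6%. Srsf9, a small SR protein, moved most. At 4.5 weeks it stood at 16.2, 14.7 and 13.9 CPM in the controls and 42.9, 40.8 and 43.7 CPM in the cKO-labelled libraries. No library of either group reached the range of the other, and the rise was 2.84-fold, a log2 fold change of 1.504 (SE 0.07, adjusted p = 2.52e-09). At 4 weeks Srsf9 had 20.6, 21.0 and 20.7 CPM in the controls and 25.3, 28.4 and 27.4 CPM in the cKO-labelled libraries. The groups did not overlap there either, and the log2 fold change was 0.38 (SE 0.07, adjusted p = 0.00121).

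Srsf11, an SR-related protein, was at 92.8, 93.3 and 91.7 CPM in the controls and 150, 151 and 157 CPM in the cKO-labelled libraries at 4.5 weeks, a log2 fold change of 0.72 (SE 0.05, adjusted p = 7.83e-08). At 4 weeks it was at 104, 113 and 103 CPM in the controls and 119, 130 and 122 CPM, a change of 0.21 (SE 0.05, adjusted p = 0.00625). All 3 cKO-labelled libraries lay above the controls at both times, though the 4 week call was lost with sex in the model (adjusted p = 0.0873). Srsf10, which represses splicing when it loses its phosphates, was at 54.6, 56.5 and 52.2 CPM in the controls and 82.7, 80.9 and 82.5 CPM in the cKO-labelled libraries at 4.5 weeks. Its log2 fold change was 0.59 (SE 0.07, adjusted p = 5.74e-06), with no overlap between the groups. At 4 weeks it was at 60.0, 55.0 and 60.6 CPM in the controls and 62.4, 74.9 and 71.7 CPM, a change of 0.25 (SE 0.07, adjusted p = 0.0117). That earlier call did not hold once control library 2 was left out (adjusted p = 0.0506), without cKO-labelled library 2 (0.0611) or with sex in the model (0.0512).

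Srsf6, an SR protein that binds exonic enhancers, was called at 4.5 weeks but not at 4 weeks. Its levels at 4 weeks were 128, 124 and 117 CPM in the controls and 105, 119 and 119 CPM in the cKO-labelled libraries, which overlapped (log2 fold change -0.11, SE 0.06, adjusted p = 0.214). At 4.5 weeks they were 110, 106 and 100 CPM in the controls and 174, 161 and 172 CPM. The groups lay apart there, with a log2 fold change of 0.68 (SE 0.06, adjusted p = 8.82e-07). Srsf4, an SR protein with a long RS domain, rose at both times. It was at 69.6, 64.0 and 59.4 CPM in the controls and 75.8, 80.1 and 85.8 CPM in the cKO-labelled libraries at 4 weeks (log2 fold change 0.32, SE 0.07, adjusted p = 0.00442). Later the levels were 53.0, 55.2 and 56.4 CPM in the controls and 72.5, 69.7 and 62.4 CPM (log2 fold change 0.31, SE 0.07, adjusted p = 0.00231). All cKO-labelled libraries lay above the controls of their time, but cKO-labelled library 3 of 4.5 weeks fell within the range of the 4 week controls. Against the mean of both control groups the rise was 0.44 at 4 weeks (adjusted p = 9.03e-05) and 0.20 at 4.5 weeks (adjusted p = 0.0140). The 4.5 week call was lost when control libraries 1 and 2 of that time were left out together (adjusted p = 0.0739). Antisense to Srsf4, Gm12992 covers 43% of its exon bases, and these unstranded reads cannot tell the 2 apart; Gm12992 was assigned 9.89 to 18.3 CPM over the 12 libraries.

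Srsf12, a relative of Srsf10 that counteracts other SR proteins, went the other way. At 4.5 weeks its level was 10.8, 10.7 and 9.98 CPM in the controls and 6.83, 6.76 and 7.02 CPM in the cKO-labelled libraries. These were the 3 lowest values of all 12 libraries, and the level was 1.53-fold lower than in the controls (log2 fold change -0.61, SE 0.12, adjusted p = 0.000488). At 4 weeks the groups overlapped, with 11.5, 10.4 and 10.5 CPM in the controls and 9.40, 9.13 and 12.2 CPM in the cKO-labelled libraries (log2 fold change -0.08, SE 0.12, adjusted p = 0.648). Srsf7, an SR protein that also serves in mRNA export, was at 60.1, 62.5 and 59.3 CPM in the controls and 54.3, 58.9 and 53.5 CPM in the cKO-labelled libraries at 4.5 weeks, a change of -0.12 (SE 0.05, adjusted p = 0.0473). That call was marginal: it was lost when any 1 of 8 libraries was left out, namely control 1 and cKO 2 and 3 of 4 weeks, all 3 controls and cKO 1 and 3 of 4.5 weeks (adjusted p 0.0511 to 0.143). It was also lost with library totals alone (0.472). Srsf1, Srsf2 and Srsf5 were called higher at 4.5 weeks but not at 4 weeks, and Srsf3 was called higher at 4 weeks but not at 4.5 weeks. The Srsf3 call was lost without control 1 or 3 or cKO 2 or 3 of 4 weeks (adjusted p 0.0683 to 0.141).

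Both Tra2 proteins, which activate exons through purine-rich enhancers, were higher at both times. Tra2a was at 64.5, 62.7 and 63.5 CPM in the controls and 83.4, 81.8 and 85.0 CPM in the cKO-labelled libraries at 4 weeks. By 4.5 weeks it stood at 44.4, 44.97 and 41.7 CPM in the controls and 75.8, 71.3 and 79.0 CPM. The groups of each time did not overlap, and the log2 fold changes were 0.39 (SE 0.05, adjusted p = 9.76e-05) and 0.79 (SE 0.05, adjusted p = 3.94e-08). Both the cKO-labelled libraries and the controls stood lower at 4.5 weeks than at 4 weeks, the controls more so. Tra2b was at 56.8, 62.4 and 64.1 CPM in the controls and 66.9, 71.1 and 74.6 CPM in the cKO-labelled libraries at 4 weeks, a log2 fold change of 0.21 (SE 0.06, adjusted p = 0.0168). At 4.5 weeks it was at 57.3, 57.1 and 56.4 CPM in the controls and 72.0, 77.4 and 80.1 CPM, a change of 0.43 (SE 0.06, adjusted p = 5.13e-05). Its earlier call was lost without control library 1 or cKO-labelled library 3 of 4 weeks (adjusted p 0.0811 and 0.0812).

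None of the 4 Clk kinases, which phosphorylate SR proteins inside the nucleus, was called at 4 weeks against the controls of that time, and all 4 were higher at 4.5 weeks. Clk1 was at 60.9, 68.0 and 62.6 CPM in the controls and 99.5, 99.3 and 108 CPM in the cKO-labelled libraries at 4.5 weeks (log2 fold change 0.68, SE 0.08, adjusted p = 4.56e-06). Clk2 was at 18.7, 20.7 and 19.6 CPM in the controls and 33.7, 31.1 and 29.3 CPM (log2 fold change 0.67, SE 0.08, adjusted p = 4.43e-06). In both genes the 3 cKO-labelled libraries were the highest of all 12. Clk4 was at 35.7, 40.5 and 36.6 CPM in the controls and 59.5, 55.5 and 54.3 CPM (log2 fold change 0.59, SE 0.09, adjusted p = 5.49e-05). Clk3 was at 43.3, 46.0 and 44.4 CPM in the controls and 60.6, 59.2 and 56.6 CPM (log2 fold change 0.40, SE 0.05, adjusted p = 2.61e-05). In Clk3 the later cKO-labelled libraries overlapped the 4 week controls, which were at 62.5, 59.9 and 58.0 CPM. Against the mean of both control groups, an alternative chosen after seeing the data, the later rise of Clk3 was 0.18 (adjusted p = 0.00334). At 4 weeks the log2 fold changes of the 4 kinases lay between -0.03 and 0.10. Against the mean of both control groups, however, Clk2 (0.23, adjusted p = 0.0108), Clk3 (0.28, adjusted p = 0.000261) and Clk4 (0.24, adjusted p = 0.0150) were called higher at 4 weeks, and the call for Clk3 at 4 weeks was also gained with library totals alone (0.15, adjusted p = 0.0368).

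The Srpk kinases, which phosphorylate SR proteins mostly in the cytoplasm and so promote their import, parted ways. Srpk2 was at 135, 141 and 151 CPM in the controls and 126, 107 and 108 CPM in the cKO-labelled libraries at 4 weeks. Later its level was 159, 167 and 181 CPM in the controls and 107, 107 and 120 CPM. All 6 cKO-labelled libraries lay below every control library, and the log2 fold changes were -0.32 (SE 0.08, adjusted p = 0.00639) and -0.60 (SE 0.08, adjusted p = 1.89e-05). Srpk1 was at 47.3, 47.7 and 48.8 CPM in the controls and 52.9, 54.9 and 50.8 CPM in the cKO-labelled libraries at 4.5 weeks, a change of 0.14 (SE 0.05, adjusted p = 0.0350). This small rise was lost without control 1 of 4 weeks, any control of 4.5 weeks, or cKO-labelled library 1 or 2 of 4.5 weeks (adjusted p 0.0541 to 0.138). At 4 weeks Srpk1 was at 52.7, 49.8 and 54.8 CPM in the controls and 50.1, 50.7 and 47.7 CPM in the cKO-labelled libraries and was not called (log2 fold change -0.08, SE 0.05, adjusted p = 0.252).

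Son and Srrm2 build the nuclear speckles in which SR proteins are stored. Srrm2 was at 396, 442 and 429 CPM in the controls and 620, 609 and 502 CPM in the cKO-labelled libraries at 4.5 weeks, all above the controls (log2 fold change 0.45, SE 0.08, adjusted p = 0.000366). At 4 weeks its groups overlapped, with 341, 331 and 351 CPM in the controls and 358, 349 and 315 CPM in the cKO-labelled libraries (log2 fold change -0.00249, SE 0.08, adjusted p = 0.987). Son was at 266, 251 and 280 CPM in the controls and 247, 230 and 215 CPM in the cKO-labelled libraries at 4 weeks, a change of -0.20 (SE 0.07, adjusted p = 0.0313). By 4.5 weeks it stood at 341, 359 and 360 CPM in the controls and 412, 372 and 371 CPM and was not called (0.12, SE 0.07, adjusted p = 0.122). The 4 week call of Son was lost without control 1 or 3 or cKO 2 or 3 of that time (adjusted p 0.0739 to 0.134) and with library totals alone (0.164).

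**Figure D3:**
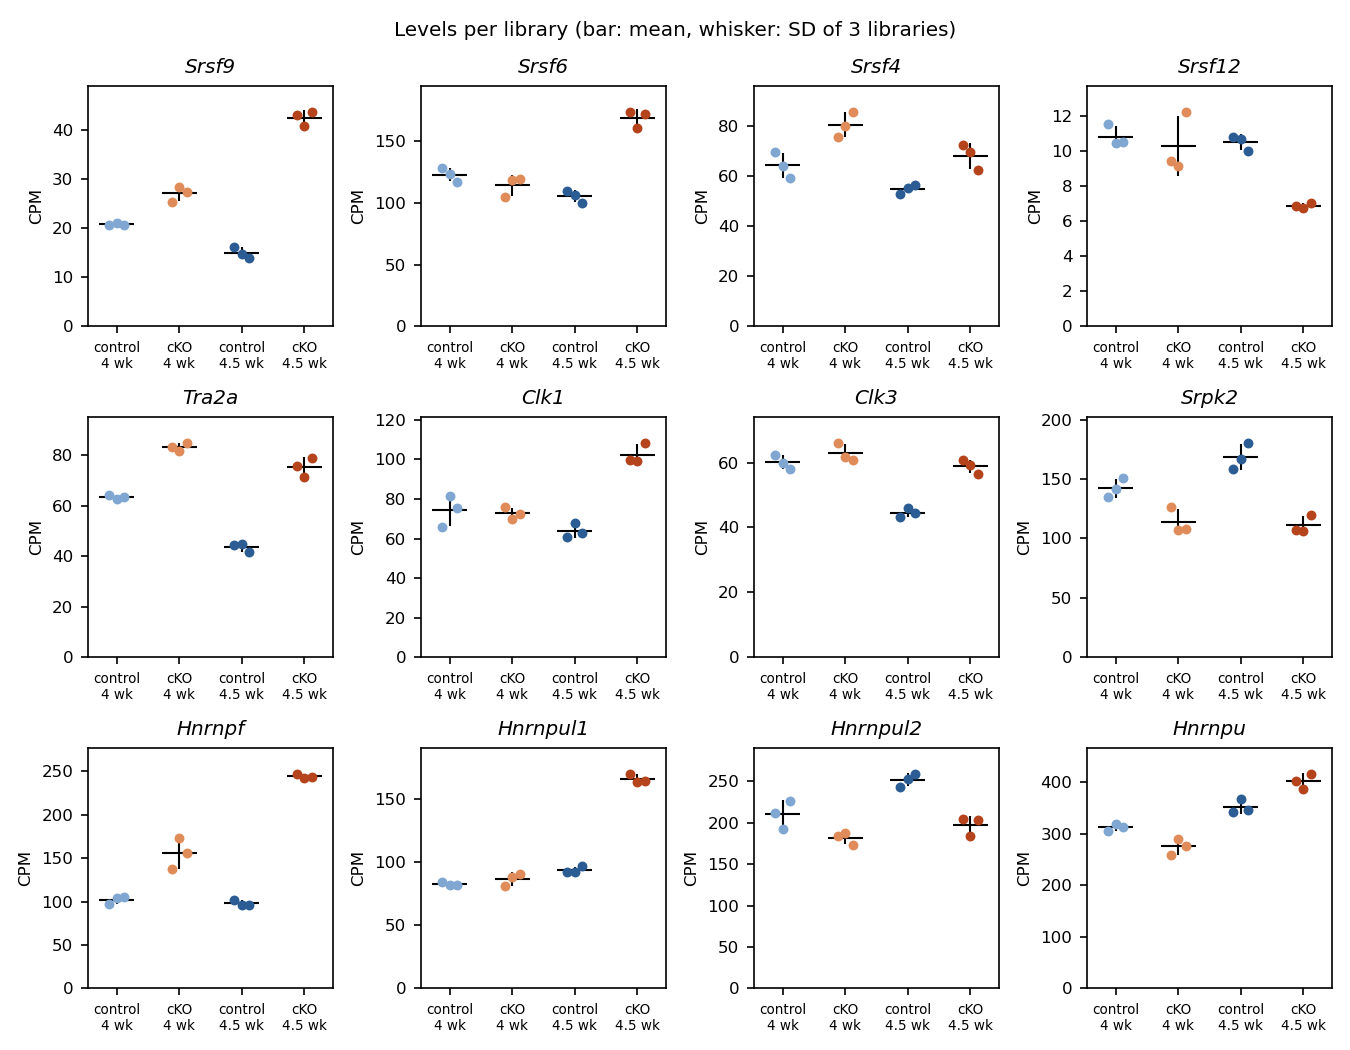
Level in CPM (axes from 0) of 12 members in each of the 12 libraries by group; points are libraries, bars the mean and whiskers the SD of 3. Srsf9, Srsf6, Clk1, Hnrnpf and Hnrnpul1 were highest in all 3 cKO-labelled libraries at 4.5 weeks, and Srpk2 was lower in the 6 cKO-labelled libraries than in every control.

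Among the 20 hnRNPs, 3 were higher (15%) and 3 lower (15%) at 4 weeks, beside 20.1% and 17.2% of all genes. At 4.5 weeks 13 were higher (65%) and 3 lower (15%), beside 33.3% and 32.6%. Hnrnpf, which binds runs of G, rose most. It was at 96.9, 104 and 105 CPM in the controls and 137, 173 and 156 CPM in the cKO-labelled libraries at 4 weeks, and at 102, 95.9 and 96.1 CPM in the controls and 247, 243 and 243 CPM at 4.5 weeks. The controls of both times overlapped, and the cKO-labelled libraries stood above all 6 of them at each time, 1.53-fold and 2.495-fold higher than the controls of the same time. The log2 fold changes were 0.61 (SE 0.07, adjusted p = 4.39e-05) and 1.32 (SE 0.07, adjusted p = 8.82e-09). Hnrnph1 and Hnrnph2, which also bind runs of G, were not called at either time. Hnrnph3 was at 37.1, 34.9 and 35.1 CPM in the controls and 30.1, 29.5 and 27.8 CPM in the cKO-labelled libraries at 4.5 weeks, all below the controls (log2 fold change -0.29, SE 0.06, adjusted p = 0.00144). At 4 weeks it was at 46.1, 48.5 and 41.9 CPM in the controls and 39.3, 38.4 and 40.3 CPM (-0.21, SE 0.06, adjusted p = 0.0216), a call lost without control 1 or 2 or cKO-labelled library 2 of 4 weeks (adjusted p 0.0609 to 0.0851), with sex in the model (0.212) or with library totals alone (0.169).

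The U-like hnRNPs, paralogs of the nuclear scaffold protein Hnrnpu, moved in opposite directions at 4.5 weeks. Hnrnpul1 was at 92.0, 92.1 and 96.8 CPM in the controls and 170, 163 and 164 CPM in the cKO-labelled libraries, the 3 highest of all 12 (log2 fold change 0.82, SE 0.05, adjusted p = 2.69e-08). Hnrnpul2 was at 243, 253 and 259 CPM in the controls and 205, 184 and 203 CPM, with all cKO-labelled libraries below the controls of their time (log2 fold change -0.35, SE 0.07, adjusted p = 0.000466). Against the 4 week controls these Hnrnpul2 levels were not separate. At 4 weeks Hnrnpul1 was not called, with 84.4, 81.5 and 81.6 CPM in the controls and 80.6, 88.0 and 90.8 CPM in the cKO-labelled libraries (0.07, SE 0.05, adjusted p = 0.347). Hnrnpul2 was already lower then, with 211, 193 and 226 CPM in the controls and 184, 188 and 173 CPM (-0.21, SE 0.07, adjusted p = 0.0266). That call was lost without control 1 or 3 or cKO-labelled library 3 of 4 weeks (adjusted p 0.0675 to 0.109), with sex in the model (0.0563) or with library totals alone (0.158).

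Hnrnpu itself was lower at 4 weeks and higher at 4.5 weeks. It was at 306, 320 and 314 CPM in the controls and 259, 291 and 277 CPM in the cKO-labelled libraries at 4 weeks (log2 fold change -0.18, SE 0.06, adjusted p = 0.0251). At 4.5 weeks it was at 343, 368 and 346 CPM in the controls and 403, 386 and 416 CPM (0.19, SE 0.06, adjusted p = 0.0109). The groups did not overlap at either time. The earlier call was lost without control 2 or 3 or cKO-labelled library 1 or 3 of 4 weeks (adjusted p 0.0517 to 0.0726), with sex in the model (0.169) or with library totals alone (0.248), and the later one without control libraries 1 and 2 of 4.5 weeks together (0.0739).

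Hnrnpab, Hnrnpd and Hnrnpdl are related proteins that bind AU-rich RNA, and they differed in their calls. Hnrnpab was at 118, 115 and 110 CPM in the controls and 127, 163 and 152 CPM in the cKO-labelled libraries at 4 weeks (log2 fold change 0.36, SE 0.08, adjusted p = 0.00270). Later its level was 111, 107 and 110 CPM in the controls and 174, 167 and 175 CPM (0.65, SE 0.08, adjusted p = 6.61e-06), with no overlap at either time. Hnrnpdl was at 123, 123 and 130 CPM in the controls and 101, 93.7 and 93.1 CPM in the cKO-labelled libraries at 4.5 weeks, below the controls of that time (-0.39, SE 0.09, adjusted p = 0.00282), although not below control library 3 of 4 weeks. At 4 weeks it was at 108, 119 and 92.3 CPM in the controls and 78.4, 94.8 and 97.1 CPM, and was not called (-0.24). That call was gained in 5 of 24 alternatives: DESeq2's size factors, DESeq2's test, no filter, without control library 3 of 4 weeks, and against the mean of both control groups. In the last, edgeR's test gave -0.36 (adjusted p = 0.00290). Hnrnpd was not called at either time. On the opposite strand Phykpl covers 29.1% of the exon bases of Hnrnpab, and it was assigned 2.02 to 4.66 CPM.

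Hnrnpm, which represses or activates exons through GU-rich sites, was at 108, 100 and 102 CPM in the controls and 158, 154 and 155 CPM in the cKO-labelled libraries at 4.5 weeks (log2 fold change 0.59, SE 0.05, adjusted p = 4.31e-07). Hnrnpa2b1, known also for RNA transport in oligodendrocytes and neurons, was at 326, 322 and 302 CPM in the controls and 428, 400 and 436 CPM (0.41, SE 0.06, adjusted p = 5.07e-05). At 4.5 weeks no library labelled cKO reached the control range of either gene. Neither passed at 4 weeks, where Hnrnpm was at 132.6, 122.4 and 122.6 CPM in the controls and 132.9, 141.1 and 137.6 CPM in the cKO-labelled libraries, all above the controls (log2 fold change 0.12, SE 0.05, adjusted p = 0.0740). The call for Hnrnpm at 4 weeks was gained with library totals alone (0.21, adjusted p = 0.00958), with the filter at 1 CPM (0.0489), without control library 1 of that time (0.0448) and against the mean of both control groups (0.27, adjusted p = 0.000258). Hnrnpa3 was called at both times: it was at 312, 301 and 302 CPM in the controls and 335, 384 and 345 CPM in the cKO-labelled libraries at 4 weeks (0.22, SE 0.06, adjusted p = 0.0110). Later it was at 321, 326 and 324 CPM in the controls and 368, 386 and 394 CPM (0.24, SE 0.06, adjusted p = 0.00264). The groups lay apart at both times, but the first call was lost without cKO-labelled library 2 of 4 weeks (adjusted p = 0.0589) or with sex in the model (0.149), and the second without control libraries 1 and 2 of 4.5 weeks together (0.0613).

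Hnrnpa0, Hnrnpa1, Hnrnpk, Hnrnpl, Hnrnpll and Hnrnpr were called higher at 4.5 weeks and did not pass at 4 weeks, with log2 fold changes of 0.13 to 0.29 at 4.5 weeks. Of these, Hnrnpa1 lost its call without control library 2 or cKO-labelled library 2 of 4.5 weeks (adjusted p 0.0534 and 0.0508). Hnrnpr lost it without any control or cKO-labelled library 1 or 2 of 4.5 weeks (0.0524 to 0.0859). Hnrnpa0 lost it without control 2 or cKO 2 or 3 of 4 weeks, or control 1 or 2 or cKO 1 or 3 of 4.5 weeks (0.0517 to 0.186), and its log2 fold change fell to 0.11 without control 1 of 4.5 weeks. Hnrnpc did not pass at either time, with log2 fold changes of 0.01 at 4 weeks and 0.01 at 4.5 weeks. Its 95% interval at 4.5 weeks ran from -0.11 to 0.12.

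The effect at 4.5 weeks was tested directly against that at 4 weeks. The difference was higher in 25 members (beside 18.7% of all genes) and lower in 1 (beside 21.9%), with a median of 0.29 where that of all genes was -0.03. Its largest values were 1.124 (SE 0.10, adjusted p = 3.57e-06) in Srsf9, 0.79 (SE 0.09, adjusted p = 2.22e-05) in Srsf6, 0.75 (SE 0.07, adjusted p = 6.95e-06) in Hnrnpul1 and 0.72 (SE 0.11, adjusted p = 0.000189) in Clk1. Srsf12 was the 1 member with a lower effect at 4.5 weeks, -0.53 (SE 0.16, adjusted p = 0.0199), and this was lost when control libraries 1 and 2 of 4.5 weeks were left out together (adjusted p = 0.133). Srsf4 was not called, with a difference of -0.01 and a 95% interval from -0.24 to 0.22. Srpk2, lower at both times, had a difference of -0.28 that did not pass (adjusted p = 0.0634). With sex in the model, 17 differences were higher.

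The control groups differed from each other in 18 members, which bears on these differences because each effect is taken against its own controls. Controls of 4.5 weeks were higher than those of 4 weeks in 5 members (12.2%, beside 9.53% of all genes) and lower in 13 (31.7%, beside 7.21%), and the split was 3 and 16 with library totals alone and 3 and 17 with upper quartile scaling. Under those scalings the median of all genes was -0.0350 and -0.0355, and that of the members -0.1246 and -0.1255. Tra2a (-0.54, SE 0.05, adjusted p = 0.00126) and Srsf9 (-0.47, SE 0.07, adjusted p = 0.00236) were lowest, and Son (0.41, SE 0.07, adjusted p = 0.00290) and Srrm2 (0.31, SE 0.08, adjusted p = 0.0246) were highest. None of the 18 passed with sex in the model (0 higher and 0 lower, adjusted p = 0.415 for Tra2a), a fit in which sex is estimated from the 3 cKO-labelled libraries at 4 weeks alone. Leaving out 1 library gave 1 to 5 higher, with 1 without control 1 or 2 of 4 weeks or control 2 or 3 of 4.5 weeks, and 7 to 15 lower, with 7 or 8 without those same libraries. The call of Srrm2 was among those lost (adjusted p 0.0715 to 0.101).

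Set against all 6 controls, which does not depend on the choice of control group, 26 members lay above every control library in all 3 cKO-labelled libraries at 4.5 weeks (beside 31.6% of all genes), 4 lay below (beside 29.2%) and 11 overlapped. Srsf4, Hnrnpa0, Clk3 and Srpk1 were called higher at 4.5 weeks without standing above all 6, and Hnrnpdl and Hnrnpul2 were called lower without standing below them. At 4 weeks 11 members lay above (beside 20.2%), among them all 10 that were called higher, and 4 lay below (beside 18.8%), among them all that were called lower except Hnrnph3. Against the mean of both control groups, edgeR's test called 15 members higher (beside 27.1% of all genes) and 6 lower (beside 24.8%) at 4 weeks, and 28 higher (beside 35.7%) and 6 lower (beside 33.7%) at 4.5 weeks. Over the members, the median deviation from the 6 controls was -0.01, 0.11 and 0.08 on the log2 scale in the 3 cKO-labelled libraries at 4 weeks and 0.26, 0.23 and 0.28 at 4.5 weeks. The shift at 4.5 weeks was thus present in each of the 3 animals.

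**Figure D4:**
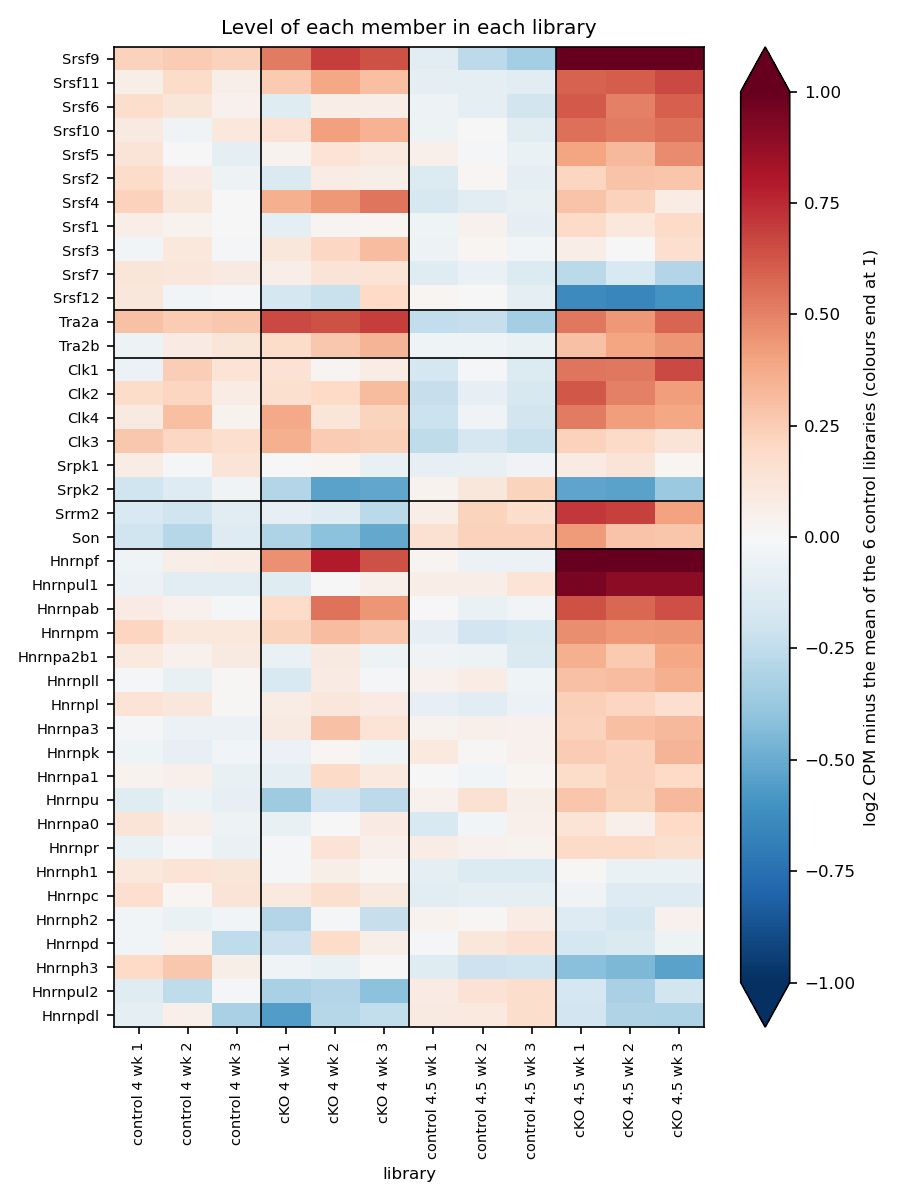
Log2 CPM of each member in each of the 12 libraries minus its mean over the 6 control libraries (red above, blue below, colours end at 1), members in blocks by role. The 3 cKO-labelled libraries at 4.5 weeks are mostly red (median deviations 0.26, 0.23 and 0.28), Srsf12, Srpk2 and Hnrnph3 are blue, and the control groups differ in Tra2a, Clk3 and Son.

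Regulators outside the SR and hnRNP families were read from a separate list, of which 48 of 49 were tested. At 4 weeks 8 were higher (16.7%) and 9 lower (18.8%), beside 20.1% and 17.2% of all genes. At 4.5 weeks 23 were higher (47.9%) and 19 lower (39.6%), beside 33.3% and 32.6%, with a median log2 fold change of 0.08. Ptbp1, which represses neuronal exons, went from 32.9 ± 2.03 CPM in the controls to 122 ± 3.54 at 4.5 weeks (SD, n = 3 each), a log2 fold change of 1.89 (SE 0.09, adjusted p = 2.27e-09), and its change at 4 weeks was 1.14 (SE 0.09, adjusted p = 1.35e-06). Its paralog Ptbp3 rose by 2.41 (SE 0.12, adjusted p = 2.56e-09) at 4.5 weeks. U2af1, the small subunit that reads the 3′ splice site, rose by 0.52 (SE 0.06, adjusted p = 4.99e-05) at 4 weeks. Lower at 4 weeks were Elavl3 (-0.67, SE 0.07, adjusted p = 1.79e-05), a neuronal RNA-binding protein, and Qk (-0.72, SE 0.09, adjusted p = 5.53e-05), which is needed for myelin formation. At 4.5 weeks Qk was not called, with 711 ± 25.1 CPM in the controls and 723 ± 43.7 in the cKO-labelled libraries (log2 fold change 0.02, SE 0.09, adjusted p = 0.825). Lower at 4.5 weeks were the neuronal proteins Elavl2 (-1.80, SE 0.10, adjusted p = 8.00e-09) and Rbfox3 (-1.28, SE 0.07, adjusted p = 5.18e-09).

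A list of 15 genes held those for the import of SR proteins, their other kinases and phosphatases, and also Srek1, Akap8 and Akap17b. Of these, 4 were higher (26.7%) and 2 lower (13.3%) at 4 weeks, beside 20.1% and 17.2% of all genes. At 4.5 weeks 8 were higher (53.3%) and 1 lower (6.67%), beside 33.3% and 32.6%. Srek1, an SR-related protein, rose by 0.29 (SE 0.06, adjusted p = 0.00218) and 0.85 (SE 0.06, adjusted p = 5.76e-08) at the 2 times, and Akap8, a nuclear anchoring protein, by 0.20 (SE 0.07, adjusted p = 0.0332) and 0.54 (SE 0.07, adjusted p = 1.07e-05). Srpk3, the muscle relative of the Srpk kinases, was lower at 4 weeks (-1.03, SE 0.19, adjusted p = 0.000971) and higher at 4.5 weeks, from 5.58 ± 0.607 CPM in the controls to 13.0 ± 2.13 in the cKO-labelled libraries (1.22, SE 0.18, adjusted p = 6.53e-05). The difference of its effects was 2.24 (SE 0.26, adjusted p = 2.47e-05). The phosphatase subunit Ppp1cc was lower at 4 weeks (-0.18, SE 0.06, adjusted p = 0.0383), and Akap17b was lower at 4.5 weeks (-0.25, SE 0.08, adjusted p = 0.0145). A list of 21 genes held those of nonsense-mediated decay and the exon junction complex, which act on the decay-prone isoforms. At 4 weeks 4 of the 21 were higher and 1 lower, beside 20.1% and 17.2% of all genes. The share called higher at that time was thus slightly below that of all genes. At 4.5 weeks 10 of the 21 were higher and 4 lower, beside 33.3% and 32.6%. The junction proteins Eif4a3 (0.65, SE 0.06, adjusted p = 3.95e-06) and Magoh (0.44, SE 0.08, adjusted p = 0.00121) were higher at 4 weeks, and the decay kinase Smg1 was lower (-0.22, SE 0.08, adjusted p = 0.0385). At 4.5 weeks Acin1 (0.59, SE 0.06, adjusted p = 2.77e-06) and the termination factor Etf1 (0.58, SE 0.07, adjusted p = 6.14e-06) were higher, and Upf2 (-0.58, SE 0.07, adjusted p = 1.20e-05) and Rbm8a (-0.33, SE 0.07, adjusted p = 0.00106) were lower.

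Gene counts add all isoforms of a gene. In the GENCODE M21 annotation, 29 of the 41 members (70.7%) had a transcript marked for nonsense-mediated decay, against 26.2% of 15838 protein-coding genes tested, and 32 (78.0%) had a retained-intron transcript, against 53.7%. Of the SR proteins 9 of 11 had a decay transcript, of the Clk kinases 4 of 4 and of the hnRNPs 10 of 20. Exons of the largest partner, on the opposite strand, covered 15.6% of the exon bases of Srsf2 (Mettl23), 15.2% of Clk3 (Edc3) and 13.5% of Hnrnpf (4933440N22Rik). Summed over all partners, the overlaps came to 748 of 2958 exon bases in Srsf2 and 806 of 3047 in Hnrnpf. Bases shared by several partners count more than once there. On the same strand March2 covered 14.7% of those of Hnrnpm. Mettl23 was assigned 5.73 to 10.2 CPM. It was called lower at 4 weeks (log2 fold change -0.55, adjusted p = 0.00938) and was not called at 4.5 weeks (0.09). Edc3 was assigned 23.9 to 30.5 CPM and was not called at either time, and 4933440N22Rik was assigned 0.222 to 3.003 CPM. At 4.5 weeks 4933440N22Rik (log2 fold change 1.91), Gm12992 (0.40) and Phykpl (0.49) were called higher, as were the members they overlap, and the share of reads that belongs to each was not tested.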

How the data were processed

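Poly(A) RNA of whole spinal cords was measured in 12 libraries, 3 per group. The authors deposited estimated counts per gene, 1 table per time, not scaled by depth or length. Per the submitters' processing notes, reads were handled with STAR and RSEM on build mm39, with no version stated; the annotation release is not given in the sources used here. The TruSeq kit named in the labels' protocols does not mark strand, and RSEM can split reads between near-identical copies, so paralog counts carry that uncertainty. Each column was matched to 1 sample through its name, and its time through the table. Genes without a symbol (6753) and those whose symbol was stored as a date (27) were kept under their identifiers.

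Estimated counts were rounded to whole numbers and tested with edgeR 4.0.16 (R 4.3.3). The filter on low counts with the 4 groups left 19278 genes, scaling was by trimmed mean of M values, and 1 model with a mean per group gave all contrasts. Each adjusted p comes from edgeR's quasi-likelihood test with Benjamini-Hochberg adjustment over all genes tested, unless a sentence names another, and called genes have an adjusted p below 0.05. Fold changes are log2, libraries labelled cKO minus control, with the standard error (SE); levels are CPM on the scaled library sizes. Alternatives used limma 3.58.1 and DESeq2 1.42.0, other scalings and filters, each time alone, a replicate block, a sex term and left-out libraries. The scripts were tested on simulated data. No pair of libraries within a group was a duplicate: replicate pairs differed by a chi-square of at least 8.62 per gene. Pairs across groups were not compared in this way.

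All Tra2, kinase and speckle members are named with values, with up to 4 rises and falls among called Srsf and 5 among called Hnrnp genes at each time; the other members are given by name and call, by range, or where a difference or a lost call concerns them. From every other list the 2 called genes of smallest p per time and direction may be named. Mettl23, March2, Gm12992, Phykpl, Edc3, 4933440N22Rik, Avil, Xist and Ddx3y were named for overlap, sex or tissue. The members and lists were chosen with earlier results of these data known.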

Additional observations from a re-analysis of the deposited data

Results flagged for a closer look

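In 26 members the effect at 4.5 weeks differed from that at 4 weeks by edgeR's test of the difference. No explanation was weighed, and the differences between the control groups given above enter each of these values. On the log2 scale, the SR and Tra2 proteins had differences of 1.124 (Srsf9), 0.7876 (Srsf6), 0.5061 (Srsf11), 0.4036 (Srsf2), 0.3412 (Srsf10), 0.3359 (Srsf5), 0.2431 (Srsf1), -0.5339 (Srsf12) and 0.3949 (Tra2a). Among the kinases and speckle proteins they were 0.7153 (Clk1), 0.6063 (Clk2), 0.4859 (Clk4), 0.3344 (Clk3), 0.2257 (Srpk1), 0.4518 (Srrm2) and 0.3291 (Son). In the hnRNPs they were 0.7549 (Hnrnpul1), 0.7087 (Hnrnpf), 0.4955 (Hnrnpa2b1), 0.464 (Hnrnpm), 0.3749 (Hnrnpu), 0.2938 (Hnrnpll), 0.2915 (Hnrnpab), 0.2892 (Hnrnpl), 0.2005 (Hnrnpk) and 0.1824 (Hnrnph1). Calls of 6 of these did not survive leaving out 1 library. Hnrnpll lost its call without control 3 of 4.5 weeks (adjusted p = 0.0613), and Srsf1 without control 1 of 4 weeks or control 1 or 3 or cKO 1 or 3 of 4.5 weeks (0.0509 to 0.0668). Srpk1 lost it without control 1 or 3 or cKO 3 of 4 weeks, or control 1 or 2 or cKO 1 or 2 of 4.5 weeks (0.0590 to 0.0904). Hnrnpk did without each library except cKO 2 of 4 weeks and control 1 and cKO 2 of 4.5 weeks (0.0544 to 0.110), Hnrnph1 without each except cKO 2 of 4 weeks and cKO 3 of 4.5 weeks (0.0567 to 0.0985), and Hnrnpab without each except cKO 1 and 2 of 4 weeks (0.0501 to 0.103). Without control libraries 1 and 2 of 4.5 weeks together, the calls of Srsf12 (0.133), Srrm2 (0.0561), Son (0.111), Hnrnpl (0.0615), Hnrnpab (0.172), Srpk1 (0.204), Hnrnpk (0.155) and Hnrnph1 (0.148) were lost. With sex in the model those of Srsf2 (0.0712), Srsf10 (0.0848), Srsf5 (0.0584), Hnrnpll (0.0895), Hnrnpab (0.198), Srsf1 (0.142), Hnrnpk (0.101) and Hnrnph1 (0.132) were lost.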

How the results depend on the processing

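The number of members higher at 4 weeks ran from 7 to 15 over the alternatives, at 4.5 weeks from 22 to 32, and in the difference of effects from 17 to 25; the number lower at 4.5 weeks ran from 5 to 7. The 5 members lower at 4 weeks became 1 with library totals alone, 2 with each time alone, 1 with the replicate block and 2 with the sex term. The 1 lower in the difference became 2 with upper quartile scaling, 2 with library totals and 0 without control libraries 1 and 2 of 4.5 weeks. Between the controls, the 5 higher became 3 with upper quartile scaling, 3 with library totals, 3 with no filter, and 0 with the replicate block, with the sex term or without those control libraries; the 13 lower became 0, 0 and 3 in the last 3 settings. The causes of these changes were not tested. Leaving out 1 library gave 2 to 5 lower at 4 weeks, 1 to 2 lower in the difference, and 1 to 5 higher and 7 to 15 lower between the controls. Deviations of libraries with the same replicate number correlated between -0.165 and 0.057. The highest correlation with another number was -0.0153 to 0.0995, and it was below the same-number value only for replicate 3 of 4.5 weeks. Groups of 3 cannot exclude a pairing by this check. The replicate block gave 9 higher at 4 weeks and 26 higher at 4.5 weeks.

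Changes of sign were in genes not called at 4 weeks, given here as log2 fold changes. With library totals alone they were 0.0112 in Srsf12, 0.0869 in Srsf7, 0.00471 in Hnrnpa2b1, 0.0552 in Clk1, 0.00373 in Srpk1, 0.0851 in Srrm2 and 0.0565 in Ddx20. With upper quartile scaling they were 0.00813 in Srsf7 and 0.00706 in Srrm2, with the filter at 1 CPM 0.00960 and 0.00807, and with the sex term 0.177 in Srsf12 and 0.0230 in Srsf7. Leaving out 1 library gave -0.0142 to 0.00780 in Srsf7, -0.115 to 0.0377 in Clk1, -0.0548 to 0.0503 in Srrm2 and -0.0882 to 0.00138 in Ddx20. The call of Ddx20 at 4.5 weeks was lost without control libraries 1 and 2 (0.331, adjusted p = 0.0989), and its values without 1 library ran from 0.261 to 0.389. Against the mean of both control groups, an alternative chosen after seeing the data, Srsf6 had 0.00452, Srsf7 0.109, Hnrnpul1 -0.0237, Clk1 0.0777 and Ddx20 0.0256 at 4 weeks, and the counts were 15 higher and 6 lower at 4 weeks (beside 27.1% and 24.8% of all genes) and 28 and 6 at 4.5 weeks (beside 35.7% and 33.7%). With 3 animals per group, the spread limits how small a change can be called.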
